A study of Mus musculus with 226 samples.

Results

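The diversity that remained among spiral ganglion neurons of Vglut3-/- mice is described here. The members are all 40 Vglut3-/- neurons of the series, labelled as taken from the Middle of the cochlea. The series also holds 88 Wildtype neurons from the Middle, 56 from the Apex and 42 from the Base. They were selected on genotype and then divided by their Calb2 level, at 4500 CPM (counts scaled to a common total per neuron), into 32 Calb2-high and 8 Calb2-low neurons. Dividing the 88 Wildtype Middle neurons at the same level gave 29 Calb2-high and 59 Calb2-low neurons. Spike-ins and tdTomato were left out of that total.

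The study read single neurons by Smart-seq2, which covers whole polyA transcripts of a hand-picked cell. Wildtype mice were bhlhb5::cre/+; Ai14/+, and Vglut3-/- mice carried the same cre driver and reporter alleles together with the Vglut3-/- genotype, so both groups share the driver and the tdTomato reporter. All neurons were picked for tdTomato at P25 to P27, so neurons that bhlhb5::cre had not labelled could not enter. Each sample is 1 neuron and no label names an animal, so each set counts as 1 sample, no test was possible and every difference below is a description of these neurons. The intervals given cover counting error only.

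Spiral ganglion neurons carry sound information from the hair cells of the cochlea to the brainstem. Vglut3, encoded by Slc17a8, is the transporter that loads glutamate into the synaptic vesicles of inner hair cells, so in its absence these cells cannot drive the neurons by glutamate release. Inner hair cells are contacted by type I neurons, commonly placed in classes known as Ia, Ib and Ic. Calb2, a cytosolic calcium buffer also called calretinin, is highest in Ia. Calb1, the related buffer calbindin, marks Ib, and Pou4f1, a POU homeodomain transcription factor, marks Ic.

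The neuronal genes Tubb3, Nefl and Snap25 had counts in 40 of 40 Vglut3-/- and 88 of 88 Wildtype neurons. The targeted gene Slc17a8 had 0 counts in all of these neurons, so it does not check the genotype labels. Of the type II markers, Th, Prph and Plk5 did not reach 1 CPM in any Vglut3-/- neuron. Counts on genes ranged from 976210 to 4038002 per Vglut3-/- neuron and from 604006 to 5182446 per Wildtype neuron. The median depth of the Vglut3-/- sets was close, at 2588082 counts for Calb2-high and 2467044 for Calb2-low neurons, with a median of 7963 and 7887 genes detected. Ages were not balanced: 22 of 32 Calb2-high but 3 of 8 Calb2-low Vglut3-/- neurons were P27. Xist, rather than Y-linked transcripts, was found in 17 of 32 and 2 of 8. Among Wildtype neurons, 4 of 29 Calb2-high and 30 of 59 Calb2-low were P27. Age and sex-linked transcripts thus moved with the division in both genotypes. They were also tied to each other. All P25 Vglut3-/- neurons, 7 Calb2-high and 4 Calb2-low, had Y-linked transcripts. Of the Wildtype P27 neurons, 4 of 4 Calb2-high and 28 of 30 Calb2-low had Xist, and 0 had Y-linked transcripts alone. Age and sex-linked transcripts could therefore not be fully told apart. Their part in the differences was not tested, beyond a limit set within ages.

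Calb2 itself, which made the sets, was well above 0 in every Vglut3-/- neuron. Its lowest level there was 972 CPM, its median 7889 CPM and its highest 15388 CPM, while Wildtype neurons ran from 0 to 20031 CPM with a median of 2203 CPM. As many as 25 of 88 Wildtype neurons lay below the lowest Vglut3-/- neuron. The SD over neurons on the log2(CPM + 1) scale was 0.97 in Vglut3-/- and 3.91 in Wildtype. Next to the dividing level, the Vglut3-/- neurons stood at 4041 CPM below and 5021 CPM above, and the Wildtype neurons at 4102 and 5609 CPM. Calb2 lies on chromosome 8, 110137502 to 110168210, minus strand (GRCm38, the assembly called mm10, GENCODE M21), as do all positions below in that build.

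As a set, the 8 Calb2-low Vglut3-/- neurons had higher levels of the Ic markers Pou4f1, Lypd1 and Runx1 and, of the Ib markers, of Calb1. Not every neuron did: 100 CPM was reached by Pou4f1 in 6 of 8, Calb1 in 6, Runx1 in 5 and Lypd1 in 3. Pou4f1 and Lypd1 were at or near 0 in the 32 Calb2-high ones. In order of rising Calb2, from 972 to 4041 CPM, Pou4f1 (chromosome 14, 104461676 to 104467999, minus strand) stood at 320, 1571, 128.4, 211.9, 177.9, 1.00, 62.8 and 190 CPM in the Calb2-low neurons. All 8 had a Pou4f1 count, against 1 of 32 Calb2-high neurons, where it reached 3.38 CPM. From summed counts this was 374 CPM (95% interval 366 to 382) against 0.0868 CPM (0.0349 to 0.179), a log2 fold of -8.43 for Calb2-high over Calb2-low. The ranges overlapped through the single Calb2-low neuron at 1.00 CPM. In Wildtype, the same division gave 452 CPM in Calb2-low and 0.0146 CPM in Calb2-high neurons.

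Runx1, a Runt-domain transcription factor and an Ic marker, stood at 168.6, 235, 32.4, 247, 59.3, 251, 222.2 and 66.7 CPM in the same order of Calb2-low neurons. It had a count in 9 of 32 Calb2-high neurons, with a highest level of 203 CPM, so the ranges overlapped. Lypd1, a membrane-anchored relative of the Ly6 proteins, had 0 counts in all 32 Calb2-high neurons and was found in 7 of 8 Calb2-low ones at 8.59 to 712 CPM. Against a floor of 3 counts over the Calb2-high set, the level of 160 CPM in the Calb2-low set is at least 4307-fold higher. The median over the Calb2-low neurons was 58.7 CPM, so the neuron at 712 CPM weighs on that sum. In Wildtype, Lypd1 was at 1375 CPM in Calb2-low neurons, with a highest level of 5799 CPM, and at 2.32 CPM in Calb2-high ones. It reached 100 CPM in 25 of 59 Calb2-low Wildtype neurons. Lypd1 shares exon sequence with Gpr39 on the other strand, and the strand setting of the counting is not given in the sources used here. Grm8, a metabotropic glutamate receptor, was found in 3 of 8 Calb2-low neurons, at 3.00, 207.3 and 330 CPM, and in 5 of 32 Calb2-high ones.

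Calb1 was spread over both sets. Its levels in the Calb2-low neurons were 150, 0, 36.3, 731, 460, 466, 619 and 1062 CPM, and the neuron at 0 was the one with the highest Pou4f1. The 5 Calb2-low neurons with the most Calb2 all had 460 CPM or more. Calb2-high neurons ran from 0 to 457 CPM with a median of 30 CPM. From summed counts Calb1 was at 444 CPM (435 to 454) in Calb2-low and 67.1 CPM (65.3 to 68.9) in Calb2-high neurons.

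**Figure D1:**
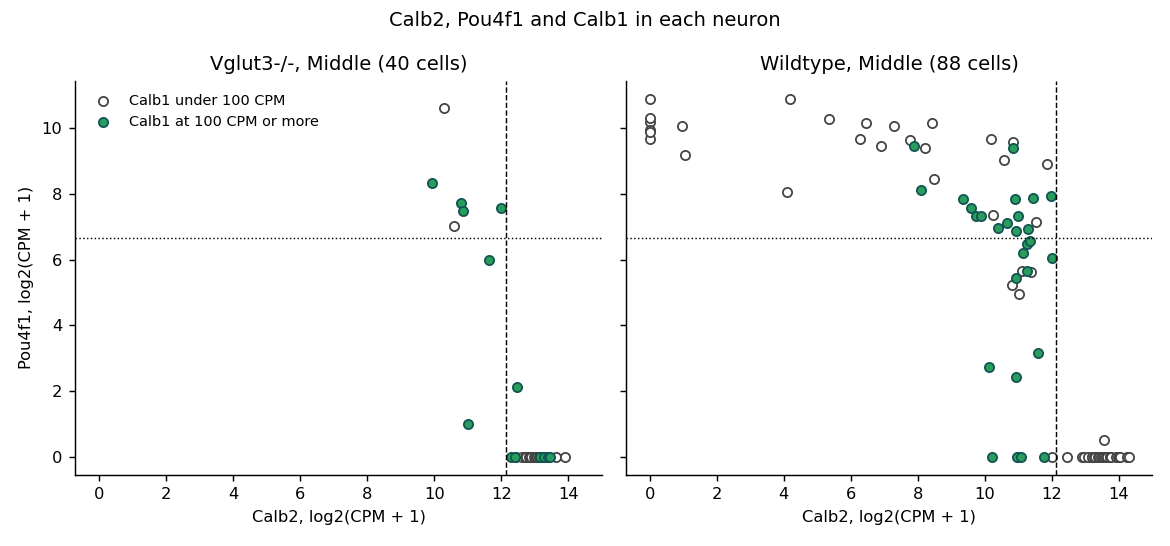
Calb2 (horizontal) against Pou4f1 (vertical) in each neuron, both as log2(CPM + 1), for Vglut3-/- and Wildtype Middle neurons. Filled points have Calb1 at 100 CPM or more, the dashed line is 4500 CPM of Calb2 and the dotted line 100 CPM of Pou4f1. No Vglut3-/- neuron lies left of 972 CPM of Calb2, and Calb1 at 100 CPM or more appears in 8 of 32 Calb2-high Vglut3-/- neurons but in 0 of 29 Wildtype ones.

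Taking 100 CPM as the level at which a marker counts as present, 4 of 8 Calb2-low Vglut3-/- neurons had Pou4f1 and Calb1 together, 2 had Calb1 alone and 2 Pou4f1 alone. Among Wildtype Calb2-low neurons, 15 of 59 had both, 13 Calb1 alone, 25 Pou4f1 alone and 6 neither. In Calb2-high neurons, Pou4f1 did not reach that level in either genotype. Calb1 did so in 8 of 32 Vglut3-/- neurons (25.0%, exact Clopper-Pearson 95% interval 11.5% to 43.4%) and in 0 of 29 Wildtype neurons (upper bound 11.9%). These shares are over neurons of unknown numbers of animals.

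The other 4 Ib markers were low or absent in the Calb2-low Vglut3-/- neurons. Ttn, the giant sarcomere protein titin that is also transcribed in Ib neurons, had a count in only 2 of 40 Vglut3-/- neurons, with a highest level of 12.9 CPM. In Wildtype it reached 100 CPM in 26 of 59 Calb2-low neurons (44.1%, interval 31.2% to 57.6%), against 0 of 8 in Vglut3-/- (upper bound 36.9%). Of these 26, 13 were among the 30 P27 neurons and 13 among the 29 P25 and P26 neurons. From summed counts Ttn was at 0.841 CPM in Calb2-low Vglut3-/- neurons and 199.4 CPM in the Wildtype ones. Lrrc52, a leucine-rich repeat subunit of potassium channels, had a count in 1 of 8 Calb2-low neurons, at 36.1 CPM, and in 22 of 59 of the Wildtype ones. Mgat4c, a glycosyltransferase gene, had counts in 4 of 8, at no more than 21.8 CPM, and in 26 of 59. Trim54, a muscle-type ubiquitin ligase gene, went the other way from the list's name, with 0 counts in the 8 Calb2-low Vglut3-/- neurons and a count in 13 of 32 Calb2-high ones. In Wildtype, too, Trim54 was higher in Calb2-high neurons, past the limits set out below. As a set, the Calb2-low Vglut3-/- neurons thus held Calb1, Pou4f1 and Runx1, with Ttn close to 0.

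Ia markers were higher in the Calb2-high neurons. B3gat1, which makes the HNK-1 carbohydrate, was found in 32 of 32 at 5.88 to 168.5 CPM, and in 5 of 8 Calb2-low ones at no more than 16.3 CPM. Pcdh20, a protocadherin, was found in 20 of 32 at up to 179 CPM and in 0 of 8. Against the floor of 3 counts over the Calb2-low set, its 29.8 CPM is at least 201-fold higher. In Wildtype, Pcdh20 was in 29 of 29 Calb2-high neurons, at 156.7 CPM from summed counts. Rxrg, a retinoid X receptor, stood at 60.4 CPM (58.8 to 62.2) in Calb2-high and 13.8 CPM (12.2 to 15.5) in Calb2-low Vglut3-/- neurons, and its ranges overlapped. Cacng5, an auxiliary subunit of AMPA receptors, went the other way, with 15.2 CPM in Calb2-high and 37.04 CPM in Calb2-low neurons. Without neurons at 100 CPM of Pou4f1 or more, which left 2 Calb2-low ones, its difference turned to 1.75 on the log2 scale. Tnnt2 had 0 counts in every neuron of both genotypes.

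Across genes, a size limit stood in for a test. A gene passed when its higher set had at least 10 CPM and a count in at least 50% of neurons, when its log2 fold (of CPM from summed counts, plus 1) and its difference of mean log2(CPM + 1) over neurons were both at least 1 on the same side, and when that difference was at least 0.5 on the same side within P27 and within P25 and P26. In Vglut3-/- neurons, 406 of 8314 genes (4.88%) passed with higher levels in Calb2-high neurons and 479 (5.76%) with higher levels in Calb2-low ones. In Wildtype Middle neurons, 2.17% and 2.39% of 8175 genes passed, 372 genes in all. These counts cannot be set against each other, since 8 neurons average less cell-to-cell spread than 59, and with fewer neurons more genes passed. Limiting the Vglut3-/- fit to neurons with Xist, of which 2 were Calb2-low, raised the counts to 1531 and 1422. P27 neurons alone, of which 3 were Calb2-low, gave 1166 and 948. The limits were also looser there. The limit within ages applied only where both sets had at least 3 neurons, so it dropped out with Xist neurons and added nothing with P27 alone. Without it, all Vglut3-/- neurons gave 529 and 630. Requiring 50 CPM lowered the 406 and 479 to 1.41% and 2.02% of the 8314 genes. Many of the named genes below are therefore given with their values in each neuron or the range over neurons. Others have only a level from summed counts, which 1 neuron can carry, or are only named.

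**Figure D2:**
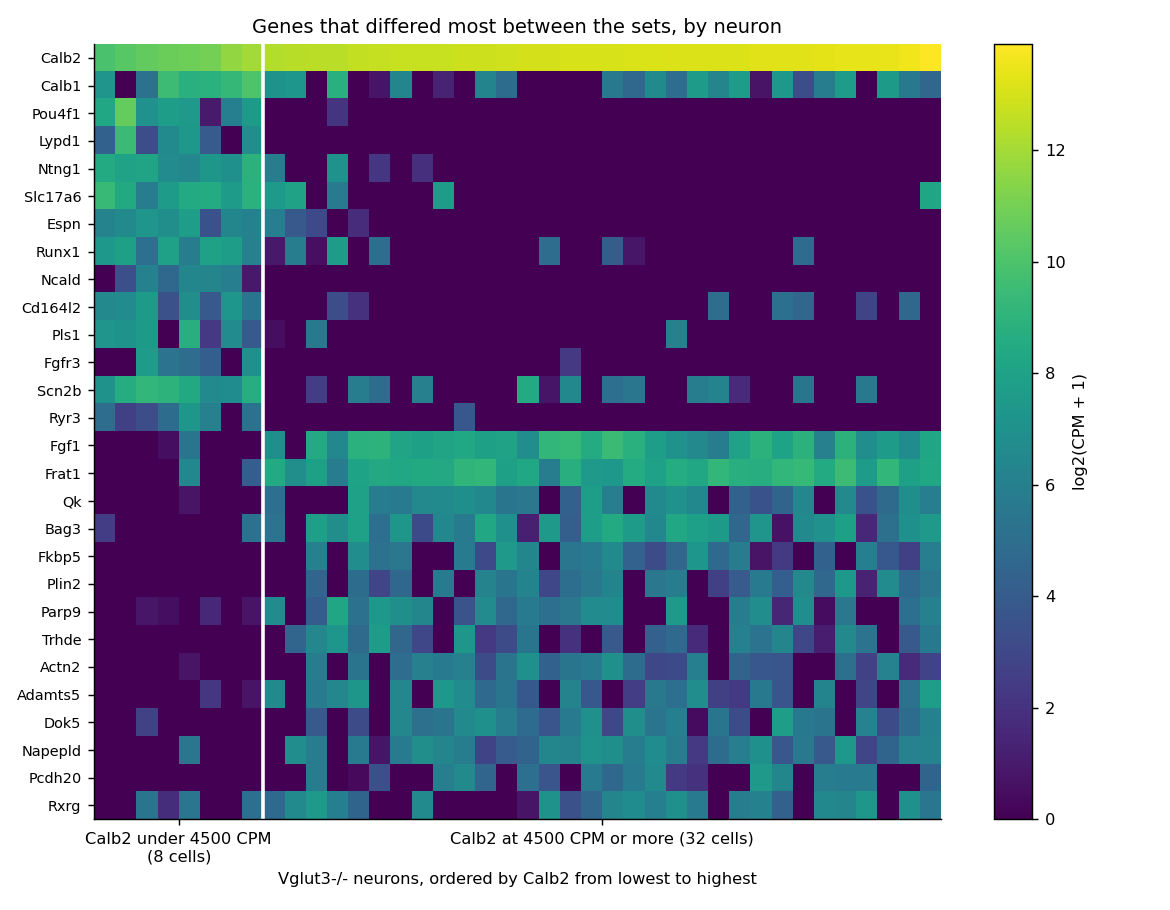
Level of named genes (rows) in each of the 40 Vglut3-/- neurons (columns, in order of rising Calb2), as log2(CPM + 1) on the colour scale; the white line stands at 4500 CPM of Calb2. Slc17a6, Ntng1, Espn, Runx1 and Scn2b are filled in all 8 Calb2-low neurons, Fgf1 and Frat1 in at least 31 of 32 Calb2-high ones, and neurons just right of the line hold some of both.

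The 12 genes named on the Calb2-low side were led by Pou4f1, and held Lypd1 and Runx1 besides Slc17a6, Ntng1, Espn, Pls1, Scn2b, Ryr3, Ncald, Cd164l2 and Fgfr3. Slc17a6 (chromosome 7, 51622006 to 51671119, plus strand) encodes Vglut2, a vesicular glutamate transporter. It stood at 664, 345, 57.4, 203.8, 362, 377, 198.98 and 475 CPM in the Calb2-low neurons. Of the 32 Calb2-high ones, 27 had 0 counts and the other 5 had 50 to 301 CPM, so the ranges overlapped. Summed, this was 334 CPM (326 to 342) against 25.8 CPM (24.7 to 26.96). Wildtype neurons gave 541 CPM in Calb2-low, with a count in 59 of 59, and 12.1 CPM in Calb2-high, with a count in 6 of 29.

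Ntng1 (chromosome 3, 109780040 to 110144011, minus strand) encodes netrin G1, a membrane-anchored adhesion protein of axons. Its levels in the Calb2-low neurons were 358, 256, 274, 103, 87.3, 164, 126.9 and 492 CPM. It was found in 4 of 32 Calb2-high neurons, at up to 135.5 CPM. Summed, it was at 246 CPM (239 to 253) against 5.35 CPM (4.85 to 5.88), and in Wildtype it was at 248 CPM in Calb2-low and 0.102 CPM in Calb2-high neurons. The Calb2-low levels were close, while the Calb2-high level was higher in Vglut3-/- than in Wildtype. In Wildtype the sets did not overlap for Ntng1, which held for 2 of 8175 genes, the other being Btbd9, a BTB-domain gene. In Vglut3-/- the sets did not overlap for 1 of 8314 genes, Cd24a, a small glycosylphosphatidylinositol-anchored surface glycoprotein. Cd24a was at 687.5 CPM or more in every Calb2-high and at 484.8 CPM or less in every Calb2-low neuron. These genes were singled out after their values had been seen.

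Espn (chromosome 4, 152120331 to 152152371, minus strand) encodes espin, an actin-bundling protein best known from hair cell stereocilia. It stood at 74.1, 95.2, 154.2, 115.1, 212.5, 10.4, 81.8 and 68.3 CPM in the Calb2-low neurons and in 4 of 32 Calb2-high ones at up to 61.5 CPM. Summed, this was 93.4 CPM (89.2 to 97.7) against 2.63 CPM (2.29 to 3.01). In Wildtype it was at 9.71 CPM in Calb2-low neurons, with a count in 21 of 59, and at 0 counts in Calb2-high ones. Pls1, a plastin that bundles actin in the same structures, was at 109.3 CPM in Calb2-low and 4.42 CPM in Calb2-high Vglut3-/- neurons, with 42.9 and 12.5 CPM in Wildtype. Over the 8 Calb2-low Vglut3-/- neurons it ran from 0 to 433 CPM, with a median of 120 CPM. Cib2, a calcium-binding protein of the hair cell transduction complex, was at 260 against 79.8 CPM, with a count in 38 of 40 neurons. The defining hair cell genes Otof, Tmc1 and Gfi1 had 0 counts in both Vglut3-/- sets. The summed level of the 9 hair cell markers ran from 174 to 503 CPM in Calb2-low and from 25.5 to 372 CPM in Calb2-high neurons, with Cib2 the highest member.

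The counts of list members below are over genes above the minimum, and stand beside 5.76% of all genes passing with higher levels in Calb2-low and 4.88% in Calb2-high neurons. For Wildtype counts these shares were 2.39% and 2.17%. Of 9 sodium and HCN channel genes in Vglut3-/-, 2 (22.2%) were higher in Calb2-low neurons and 0 the other way, and the same 2 passed in Wildtype. Scn2b, an auxiliary sodium channel subunit, was at 134, 393, 593, 501, 345, 100.9, 109.2 and 406 CPM in the Calb2-low Vglut3-/- neurons, against a median of 0 and a highest level of 357 CPM in the Calb2-high ones. Nalcn, the sodium leak channel, was at 34.2 to 146 CPM in 8 of 8 and was found in 8 of 32 Calb2-high ones at up to 58.3 CPM. The median difference over the list was 0.24, with -0.09 over all genes tested, so these genes do not speak for the list. Of 10 calcium channel genes, Cacna1b, the N-type pore subunit, and Cacna2d1, an auxiliary subunit, were higher in Calb2-high neurons of both genotypes. Cacna1b was at 28.1 CPM in Calb2-high and 2.57 CPM in Calb2-low Vglut3-/- neurons, and at 21.6 and 1.42 CPM in Wildtype. Cacna1e, the R-type pore subunit, was at 50 CPM (46.96 to 53.2) in Calb2-low and 1.89 CPM (1.60 to 2.21) in Calb2-high Vglut3-/- neurons, with a count in 5 of 8 and 4 of 32. In Wildtype it had counts in 7 of 59 Calb2-low and 0 of 29 Calb2-high neurons.

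Of 41 listed potassium channel genes, 16 were above the minimum in Vglut3-/-. Of these 16, 4 (25.0%, with 5.76% over all genes) were higher in Calb2-low neurons, namely Kcna6, Kcnab1, Kcnh5 and Kcnt1, and 1, Kcnn2 (6.25%, with 4.88% over all genes), in Calb2-high ones. In Wildtype, 0 of 17 passed in either direction, where 2.39% and 2.17% of all genes did. Kcnt1, a sodium-activated channel, was at 125 CPM (120 to 130) in Calb2-low and 46.9 CPM (45.5 to 48.5) in Calb2-high neurons, with a count in 8 of 8 and 28 of 32. Kcnab1, Kcna6 and Kcnn2 share exon sequence with a gene on the other strand. The median difference over the list was -0.30 in Vglut3-/- and -0.12 in Wildtype. Whether the genotypes differ here was not tested.

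Of 15 calcium buffer and sensor genes above the minimum, Calb2 and Calb1 aside, 3 (20%, with 5.76% over all genes) were higher in Calb2-low neurons, namely Ncald, Kcnip2 and Kcnip4. In Calb2-high neurons 1 was higher, Hpcal1 (6.67%, with 4.88% over all genes). Ncald, neurocalcin delta, had 0 counts in 32 of 32 Calb2-high neurons and was found in 7 of 8 Calb2-low ones at up to 84.1 CPM. Hpcal1, a hippocalcin-like sensor, was at 51.6 CPM in Calb2-high and 2.18 CPM in Calb2-low neurons, and at 38.3 and 5.05 CPM in Wildtype. Kcnip1, Kcnip2 and Kcnip3, sensors that bind A-type potassium channels, all followed low Calb2 in Wildtype, but in Vglut3-/- only Kcnip2 passed. Kcnip3 had 0 counts in all 40 Vglut3-/- neurons, against 27.7 CPM in Calb2-low and 5.46 CPM in Calb2-high Wildtype neurons. Kcnip1 was at 193 and 161.9 CPM in Calb2-low and Calb2-high Vglut3-/- neurons, and at 198.4 and 58.4 CPM in Wildtype.

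Of 28 guidance and adhesion genes, 8 (28.6%, with 5.76% over all genes) were higher in Calb2-low Vglut3-/- neurons. Sema6a alone (3.57%, with 4.88% over all genes) was higher in Calb2-high ones. In Wildtype these were 8 and 3 of 30 (26.7% and 10.0%, with 2.39% and 2.17% over all genes). Ntng1, Dcc (a netrin receptor), Robo2 (a Slit receptor), Nlgn1 (a neuroligin) and Tenm2 (a teneurin) were on the low side in both genotypes. Dcc stood at 33.4 CPM against 13.4 CPM in Vglut3-/- and at 25.5 against 1.78 CPM in Wildtype. Sema6a, a transmembrane semaphorin, was at 103 CPM (100.6 to 105.04) in Calb2-high and 15.8 CPM (14.1 to 17.6) in Calb2-low Vglut3-/- neurons, and had counts in 31 of 32 and 4 of 8. The list's median difference was -0.67 in Vglut3-/-. Tenm2 turned to 0.21 without neurons at 100 CPM of Pou4f1 or more. Of 26 transcription factor genes outside the class markers, 1 passed in Vglut3-/- (3.85%, near the 4.88% over all genes). This was Onecut2, at 68.02 CPM in Calb2-high and 20.4 CPM in Calb2-low neurons. In Wildtype 7 of 29 passed. With high Calb2 these were Maf, Ebf3 and Zfhx3 (10.3%, with 2.17% over all genes). Among those with low Calb2 (13.8%, with 2.39% over all genes) were Mef2c and Satb1.

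Of 5 axon injury genes above the minimum, Sox11 was higher in Calb2-high and Flrt3 in Calb2-low neurons. Sox11, a SOX transcription factor, was at 78.4 CPM in Calb2-high and 34.3 CPM in Calb2-low neurons, and Flrt3, a membrane adhesion protein, at 12.7 and 30.8 CPM. Of 25 vesicle and release genes, Slc17a6 was the sole one past the limits. Of 12 transmitter receptor genes, 9 immediate early genes, 6 growth factor receptor genes and 7 mitochondrially encoded genes, 0 were past them in Vglut3-/- neurons. The immediate early genes, which neurons transcribe after activity, had a median difference of -1.72, lower in the Calb2-high neurons, without any gene meeting the limits. In Wildtype their median difference was -0.65. There 2 of 11 (18.2%, with 2.39% over all genes), Npas4 and Btg2, were higher in Calb2-low neurons. Gap43, a growth cone protein, was at 52.3, 91.3, 27.8, 57.4 and 40.6 CPM in 5 Calb2-low neurons and at 0 in 3, and reached 13.98 CPM in 6 of 32 Calb2-high ones. Without neurons at 100 CPM of Pou4f1 or more, its difference turned to 0.55. In Wildtype it was at 3.17 CPM in Calb2-low and 1.02 CPM in Calb2-high neurons from summed counts.

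Genes higher in the Calb2-high neurons were led by a pair that the Calb2-low Vglut3-/- neurons nearly lacked. Fgf1, acidic fibroblast growth factor, stood at 0 CPM in 6 of the 8 Calb2-low neurons and at 0.428 and 41.1 CPM in the other 2. It was at 0 in 1 Calb2-high neuron and at 59.4 to 712 CPM in the other 31. Summed, this was 294 CPM (291 to 298) against 3.16 CPM (2.44 to 4.04), a log2 fold of 6.15. Calb2-low Wildtype neurons held far more of it, at 359 CPM with a count in 57 of 59, and the Wildtype Calb2-high level was 681 CPM. The median Fgf1 level in Wildtype Calb2-low neurons was 406 CPM at P27 and 315 CPM at P25 and P26. In Calb2-low Vglut3-/- neurons, 1 of 3 P27 and 1 of 5 P25 and P26 neurons had a count. Whether this difference between genotypes exceeds that between animals was not tested.

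Frat1 (chromosome 19, 41829970 to 41832583, plus strand), which binds GSK3 in Wnt signalling, was found in 32 of 32 Calb2-high neurons at 55.5 to 739 CPM. It was at 0 in 6 of 8 Calb2-low ones and at 88 and 17.1 CPM in the others. Wildtype neurons gave 166.8 CPM in Calb2-high and 44.3 CPM in Calb2-low neurons, with a count in 43 of 59 of the latter. Bag3, a co-chaperone, was at 131.8 CPM against 6.23 CPM, and Qk, an RNA-binding protein, at 64.4 CPM against 0.0495 CPM, which is 1 count in the Calb2-low set. Plin2, a lipid droplet protein, had 0 counts in the 8 Calb2-low neurons and was found in 25 of 32 Calb2-high ones, with 60.3 and 1.42 CPM in Wildtype. Fkbp5, a co-chaperone of the glucocorticoid receptor, had 0 counts in the 8 and a count in 24 of 32. Trhde, an enzyme that degrades thyrotropin-releasing hormone, had 0 counts in the 8 and a count in 25 of 32, while Wildtype gave 19.2 CPM in Calb2-high and 20.6 CPM in Calb2-low neurons. Parp9, which overlaps Dtx3l on the other strand, Actn2, Adamts5, Dok5 and Napepld completed the 12 named.

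**Figure D3:**
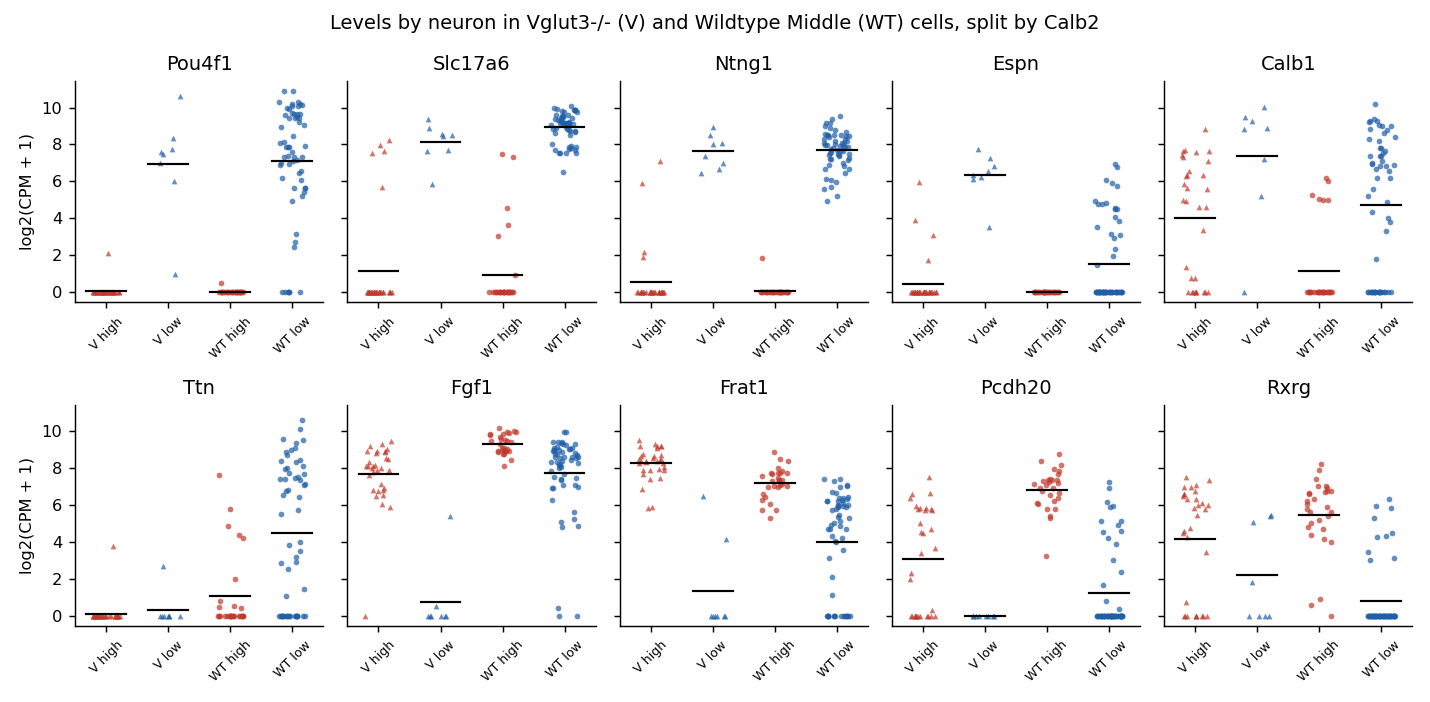
Level of 10 genes in each neuron, as log2(CPM + 1), in Calb2-high and Calb2-low Vglut3-/- (V, triangles) and Wildtype Middle (WT, circles) neurons; bars are means over neurons. Slc17a6 and Ntng1 follow the same order in both genotypes, Ttn stays at or near 0 in both Vglut3-/- sets, and Fgf1 is at 0 in 6 of 8 Calb2-low Vglut3-/- neurons but present in 57 of 59 Wildtype ones.

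The genes that divided Wildtype neurons were then read in the Vglut3-/- neurons, which share no cell with them. Of the genes higher in Calb2-high Wildtype neurons, 57 (32.2%) passed on the same side in Vglut3-/-, where 4.88% of all genes did, and 6 on the other. The same sign was found for 141 (79.7%), where 45.1% of all genes tested lay on that side. Their median difference was 1.01 in Vglut3-/-, where it was -0.09 over all genes tested, and 1.86 in the Wildtype neurons that chose them. Of the genes higher in Calb2-low Wildtype neurons, 68 (34.9%) passed on the same side, where 5.76% of all genes did, and 1 on the other. The same sign was found for 79.5%, where 54.9% of all genes tested lay on that side, and the medians were -1.17 in Vglut3-/- and -1.79 in Wildtype. A smaller difference outside the neurons that chose a gene is usual and is not read as a difference between genotypes. As shares of the Vglut3-/- genes past the limits, the shared genes were 57 of 406 (14.04%) and 68 of 479 (14.2%). Over 7706 genes above the minimum in both, the differences had a Pearson correlation of 0.37 and a Spearman correlation of 0.20 across genes, which are not independent.

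**Figure D4:**
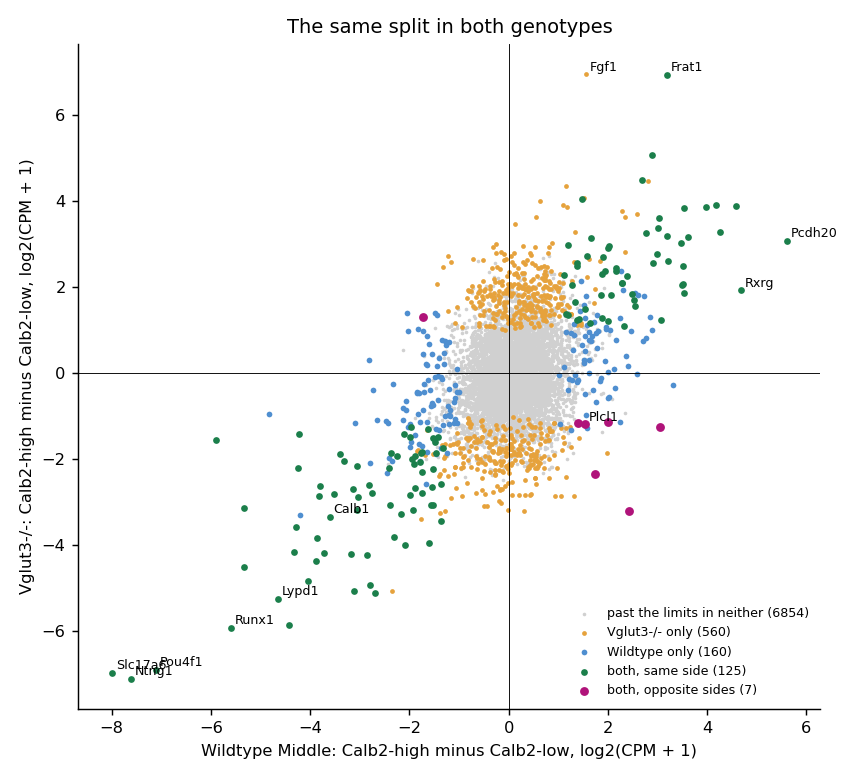
Difference between Calb2-high and Calb2-low neurons for each of 7706 genes, in Wildtype Middle (horizontal) and Vglut3-/- neurons (vertical), both as mean log2(CPM + 1) of Calb2-high minus Calb2-low; colours give the genotype in which a gene was past the limits. Along the diagonal lie 125 genes past the limits on the same side in both, with Slc17a6, Ntng1 and Pou4f1 at the low end, and 7 genes lie on opposite sides.

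Among genes past the limits in both, Zfp532 (a zinc finger protein), Gnao1 (a G protein subunit), Alpk2 and Dok5 were on the high side, and Sdc4 (a syndecan), Cpne6 (a copine) and Kcnip2 on the low side. Gnao1 was at 111.5 CPM against 16.8 CPM in Vglut3-/- and 109.4 against 14.2 CPM in Wildtype. Cpne6 was high in both Vglut3-/- sets, at 413 CPM in Calb2-high and 836 CPM in Calb2-low neurons, but at 6.48 and 210 CPM in Wildtype. A gene that nearly vanished from Wildtype Calb2-high neurons was thus present in 31 of 32 such Vglut3-/- neurons. Cab39l, Kcnip1 and Prkar2b divided the Wildtype neurons but differed by under 0.5 in Vglut3-/-, as did Ephx4, Nde1, Dera and Asap2 on the high side. Dera, an aldolase, was at 45.4 and 48.02 CPM in Calb2-high and Calb2-low Vglut3-/- neurons, and at 26.1 and 7.53 CPM in Wildtype.

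Some genes divided the Vglut3-/- neurons alone by these limits. Fgfr3, a receptor for Fgf1 among others, was at 54.6 CPM (51.5 to 58.0) in Calb2-low neurons, with 204.1, 37.7, 30.6, 17.04 and 127.6 CPM in 5 of them and 0 in 3. It was at 0.0992 CPM in Calb2-high neurons and at 0.160 and 0.335 CPM in Calb2-low and Calb2-high Wildtype neurons. Lrtm2 had 0 counts in 32 of 32 Calb2-high neurons and was found in 4 of 8 Calb2-low ones at 26.5 to 194 CPM, with counts in 3 of 59 Calb2-low Wildtype neurons. Dpp10, a partner of A-type potassium channels, was in 7 of 8 and in 2 of 32. Rhov and Spin2c were in 5 and 4 of 8. On the high side, Dcaf13, Parp11, Zbtb43, Sgce, Lnx1 and Atxn7l1 were at 16.7 to 28.7 CPM and at no more than 0.841 CPM in the Calb2-low neurons, with Wildtype differences under 0.5.

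The 7 genes on opposite sides were Plcl1, Lrrc4c, Aco1, 9330182L06Rik, Kcnip4 and Bean1, higher with low Calb2 in Vglut3-/-, and Plppr4, higher with high Calb2. Lrrc4c, a netrin G ligand, was at 48.02 CPM in Calb2-low and 16.0 CPM in Calb2-high Vglut3-/- neurons, and at 12.9 and 41.4 CPM in Wildtype. Most of the 7 depended on few neurons: they kept their place in Vglut3-/- under 5 to 15 of 17 alternative settings, Lrrc4c under 15. Aco1 and Bean1 changed direction, to 0.13 and 0.88, without neurons at 100 CPM of Pou4f1 or more. In contrast, 21 of the 75 named genes past the limits kept theirs under all 17, among them Pou4f1, Runx1, Slc17a6, Ntng1, Espn, Calb1, Fgf1, Frat1 and B3gat1. Dropping the minimum or the age condition only loosened the limits, so no gene could lose its place there. Most of the genes listed were named for large differences in these same neurons, so keeping their place is not independent support.

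Each neuron was placed by the mean log2(CPM + 1) of the Wildtype high-side genes minus that of the Wildtype low-side genes. The 8 Calb2-low Vglut3-/- neurons fell between -2.29 and -1.79, and all 8 lay inside the range of Calb2-low Wildtype neurons, -3.65 to -1.27. The 32 Calb2-high ones fell between -1.27 and 1.36 with a median of 0.56, and none was at or below a Calb2-low one. Calb2-high Wildtype neurons, which helped choose the genes, lay between 1.18 and 2.55, and 3 of 32 Vglut3-/- neurons reached that range. Within the 32, the score had a Pearson correlation with Calb2 of 0.42 and a Spearman correlation of 0.23.

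Only 3 Calb2-high Vglut3-/- neurons scored below 0, and all 3 were among the 4 with the least Calb2. The first, at 5021 CPM of Calb2, had 182.6 CPM of Slc17a6, 59.2 of Ntng1, 61.5 of Espn and 134.6 of Calb1, and also 356 CPM of Frat1. The second, at 5474 CPM, had 254 CPM of Slc17a6, 157.6 of Calb1 and 0 of Fgf1. The third, at 5631 CPM, had the lowest score of the 32, with 457 CPM of Calb1, 203 of Runx1 and 135.5 of Ntng1. The fourth of these neurons, at 5572 CPM, had 0 counts of Slc17a6, Ntng1 and Calb1 and 359 CPM of Fgf1. These 3 low-scoring neurons thus carried genes of both sets. The fourth had Espn at 7.43, Scn2b at 4.71 and Runx1 at 0.495 CPM, all genes higher in the Calb2-low set. Single genes of that set also appeared further from the dividing level. Slc17a6 was at 200 and 301 CPM in the Calb2-high neurons at 6902 and 15388 CPM of Calb2.

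**Figure D5:**
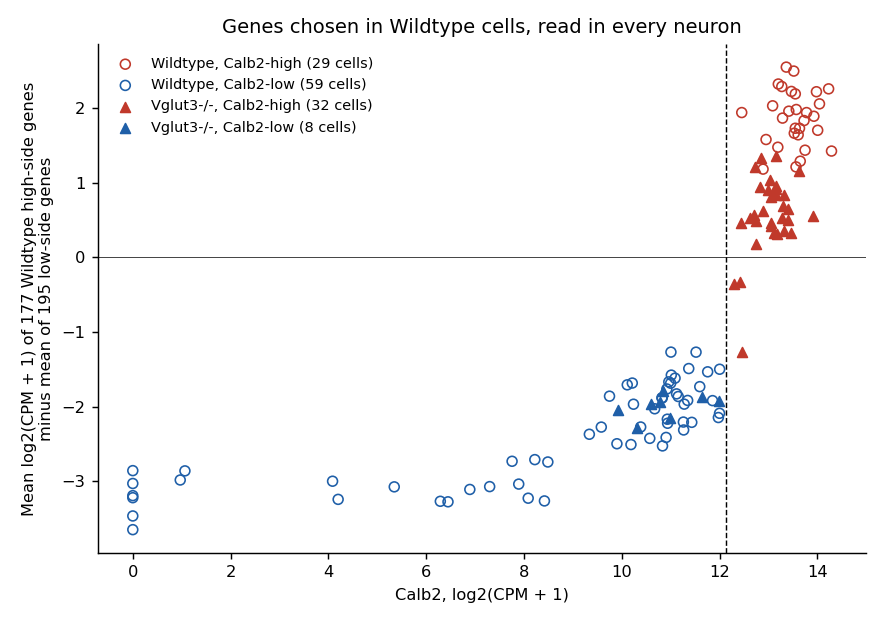
Calb2 as log2(CPM + 1) (horizontal) against the score of each neuron, the mean level of the Wildtype high-side genes minus that of the low-side genes (vertical, log2 units). Filled triangles are Vglut3-/- and open circles Wildtype Middle neurons; the dashed line is 4500 CPM. The Calb2-low Vglut3-/- neurons sit among Wildtype ones at -2.29 to -1.79, and most Calb2-high ones sit below the Wildtype Calb2-high range of 1.18 to 2.55.

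The median SD of log2(CPM + 1) over 8486 genes was 2.12 in Vglut3-/- and 2.02 in Wildtype neurons, and for the Wildtype low-side genes 2.36 and 2.43. Among class markers, the SD was lower in Vglut3-/- for some: 0.73 against 3.70 for Ttn, 2.47 against 5.06 for Lypd1 and 3.05 against 4.21 for Pou4f1, with 3.45 against 3.72 for Calb1. It was as large or larger in Vglut3-/- for others, at 3.13 against 2.99 for Runx1, 2.95 against 2.90 for Rxrg, 2.79 against 2.53 for Cacng5 and 2.26 against 2.26 for Trim54. Pairs of neurons within the Calb2-high set had a median Pearson correlation of 0.524 over these genes, pairs within the Calb2-low set 0.506 and pairs across the sets 0.495. The Wildtype values were 0.555, 0.533 and 0.522, in the same order.

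Over all 40 Vglut3-/- neurons, the genes most like Calb2 by Pearson correlation of log2(CPM + 1), of 7651 genes, were Frat1 (0.875), Cd24a (0.804), Syngr1 (0.794), Fgf1 (0.794) and Gnao1 (0.763). The least like it were Btbd9 (-0.653), Lgr5 (-0.625), Cpne9 (-0.623), Timp3 (-0.620) and Nos1 (-0.616). Within the 32 Calb2-high neurons, where Calb2 itself varies less, these values were between -0.104 and 0.341 for the first group and between -0.347 and -0.0487 for the second. The genes were picked for extreme values over all 40 neurons, so nothing is read from the smaller values.

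Markers of other cells were low. The glial genes Mbp, Sox10 and Fabp7 had 0 counts in both Vglut3-/- sets, 10 of 10 macrophage and blood markers were at 0 in the Calb2-low set, and 8 of 10 fibroblast and vascular markers were at 0 in each. Among fibroblast and vascular markers, the highest was Dcn, at 22.6 CPM in the Calb2-low set. Of 17 glial markers, 10 had 0 counts in the Calb2-high and 13 in the Calb2-low set. The highest glial marker was Cnp at 14.1 CPM in the Calb2-high set and Apoe at 10.6 CPM in the Calb2-low set. The summed glial markers ran from 0 to 96.6 CPM in Calb2-low and from 0 to 196 CPM in Calb2-high neurons.

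The promoters of genes that moved together were searched for TAATTA, the core that many homeodomain proteins, POU factors among them, recognise; it reads the same on both strands. Sequences came from RefSeq (GRCm38.p6), using the 250 bases before each listed start. The letters were found in 7 of 502 promoters of genes higher in Calb2-low Vglut3-/- neurons (1.39%), in 13 of 410 of those higher in Calb2-high ones (3.17%), in 2.43% of those of all genes tested and in 4.84% of all promoters. The low-side share was below that of all genes tested. A match describes the letters and not a binding site. Shown are the matches of Slc17a6, at the second of its listed starts (chr7:51624387-51624636, plus strand), and of Espn (chr4:152136326-152136575, minus strand), written 5′ to 3′ with the match in capitals.
Slc17a6: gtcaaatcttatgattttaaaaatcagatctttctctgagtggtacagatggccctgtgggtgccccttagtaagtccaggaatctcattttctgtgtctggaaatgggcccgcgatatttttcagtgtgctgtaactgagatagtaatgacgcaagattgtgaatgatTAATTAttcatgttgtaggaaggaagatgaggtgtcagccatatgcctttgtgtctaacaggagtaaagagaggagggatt
Espn: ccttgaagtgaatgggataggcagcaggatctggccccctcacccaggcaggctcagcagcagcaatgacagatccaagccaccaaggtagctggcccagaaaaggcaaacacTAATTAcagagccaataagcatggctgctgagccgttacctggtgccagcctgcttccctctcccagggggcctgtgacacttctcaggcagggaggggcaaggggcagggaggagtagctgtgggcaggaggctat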

How the data were processed

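The table used holds counts per gene for each neuron, whole numbers as deposited by the authors. For mapping and counting, the submitters' processing notes name STAR 2.4.0 with mm10 and, in Subread 1.4.6, featureCounts, besides Seurat 1.4.0.12, Trimmomatic 0.33 and edgeR 3.14.0. How strand and reads with several matches were treated is not given in those sources, so the 33 of 103 named genes that share exon sequence with a gene on the other strand, and the 5 that share it on the same strand, are uncertain. A deposited normalized table was not used here.

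CPM was computed here from the counts of 24491 genes, after leaving out 92 spike-in entries and the reporter. Counts were summed over each set, with exact Poisson intervals at 95%. Folds used CPM + 1, and a set at 0 was replaced by a floor of 3 counts over the set. Shares have exact Clopper-Pearson intervals. A share or level of 1 neuron has no replicate error, and counts of amplified reads are not independent molecules.

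The members, the gene lists and the rules were chosen with earlier results of these data known. Named were the 12 largest per side in Vglut3-/- by the mean of fold and difference; of the Wildtype genes past the limits, the 8 largest per side shared with Vglut3-/- and the 8 largest that differed by under 0.5 there; the 6 largest per side past them in Vglut3-/- alone; every gene on opposite sides; list members past the limits; and class markers. A few genes that these rules or lists name are not reported here. For likeness to Calb2, the 5 highest and 5 lowest correlations were named. Xist, Tsix and Y-linked genes were kept apart; a neuron had such transcripts at 7 CPM or more.

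The procedure was run on simulated data in which genes varied independently and neurons had no animal of origin. The outcome is not reported here, and nothing about these neurons is read from it. No neuron was left out, no doublet caller was run on hand-picked cells, and no pair of Vglut3-/- neurons correlated above 0.575. Alternatives included other thresholds, ages, scalings (TMM with edgeR 4.0.16 in R 4.3.3), minimums and pseudocounts. Python 3.11.15, numpy 2.4.6, pandas 2.3.3, scipy 1.17.1 and matplotlib 3.10.9 were used, with gene positions from GENCODE M21.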

Additional observations from a re-analysis of the deposited data

Results flagged for a closer look

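In the 8 Calb2-low Vglut3-/- neurons, 29 measures were examined for a neuron far from the others, and 7 had one. Chance alone gives this for about 5% of sets of normally distributed values. Levels with many 0 values are not of that kind, so 7 of 29 is not set against 5%. The neuron with the most Pou4f1 (1571 CPM) also had 5.52% of its counts on spike-in controls, against 1.00% to 2.06% in the others. Another neuron had counts on 8769 genes, the next highest being 8059. Espn had 1 neuron far below the others, at 10.4 CPM. The remaining 4 were genes with a count in a single Calb2-low neuron, a case that the rule always flags. They were Ttn at 5.48 CPM, Lrrc52 at 36.1 CPM, Th at 0.390 CPM and Plk5 at 0.652 CPM.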

How the results depend on the processing

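The genes chosen in Wildtype were kept fixed, so 4 of the 17 alternatives (both other minimums, the log2 limit and the age condition) could not move their median difference in Vglut3-/- neurons. Under the other 13 its direction held: it stayed between 0.48 and 1.51 on the high side and between -1.41 and -0.65 on the low side, with the values nearest 0 at a pseudocount of 10 CPM. Shares of genes past the limits depended on how many neurons were used and on the limits. The limit within ages applied only where both sets had at least 3 neurons of those ages. It therefore dropped out in Vglut3-/- for Xist neurons alone and without neurons at 100 CPM of Pou4f1 or more. They are given as percent of the 8314, 8175 and 7706 genes tested with the settings of the report, for Vglut3-/- with high and low Calb2, Wildtype with high and low Calb2, and both genotypes. P27 neurons alone gave 14.02, 11.4, 6.46, 7.35 and 3.04. P25 and P26 neurons alone gave 9.36 and 11.7 in Vglut3-/- and 3.71 for high Calb2 in Wildtype. Xist neurons alone, with 2 Calb2-low Vglut3-/- neurons, gave 18.4, 17.1, 3.36, 3.74 and 2.50. Without neurons at 100 CPM of Pou4f1 or more, which also left 2, Vglut3-/- gave 13.4 and 16.4 and Wildtype 3.67 with high Calb2. Leaving out each gene's highest neuron lowered the Vglut3-/- low side to 2.85. A pseudocount of 10 CPM gave 1.80, 2.17, 0.783, 1.21 and 0.947, a minimum of 50 CPM 1.41, 2.02, 0.673, 1.17 and 0.727, and a log2 limit of 1.5 gave 2.48, 2.35, 0.905, 1.19 and 0.934. Neurons with Y-linked transcripts alone, chosen after seeing the data, gave 10.5 on the Vglut3-/- low side and 5.76 and 3.90 in Wildtype. Also chosen after seeing the data was leaving out the Vglut3-/- neuron with the most Pou4f1, which gave 418 and 495 genes and kept 701 of the 885 Vglut3-/- genes. TMM scaling kept 831 of the 885 and moved the median of all Vglut3-/- genes from -0.09 to -0.04, while median-ratio scaling kept 878.

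Of the named genes, 5 changed direction in Vglut3-/-. Without neurons at 100 CPM of Pou4f1 or more, the difference became 0.13 for Aco1, 0.88 for Bean1, 1.75 for Cacng5, 0.55 for Gap43 and 0.21 for Tenm2. With Xist neurons alone it was 0.47 for Aco1, and with Y-linked neurons alone 0.018 for Bean1. The deposited normalized table was listed as an alternative and was not run. No paired analysis was possible because each number in the labels belongs to 1 neuron. With 8 Calb2-low neurons, a gene found in 4 of them rests on 4 neurons, and a count of 0 over the set allows 0.148 CPM.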
